A study of Mus musculus with 6 samples.

Results

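The genes described are the 10 dual-specificity phosphatases of the MAP kinase phosphatase family: Dusp1, Dusp2, Dusp4, Dusp5, Dusp6, Dusp7, Dusp8, Dusp9, Dusp10 and Dusp16. They were chosen by gene symbol from the 18059 genes of the deposited tables, and the symbols, not a threshold on measured values, define the set. All 10 were present in the tables and all 10 passed the filter on low counts that left 13270 genes. In cultured mouse cardiac fibroblasts given PDGF-DD, 6 of the 10 transcripts rose, 1 fell and 3 did not pass the test. Over all 13270 tested genes, 19.1% were called as higher and 17.4% as lower. The rises were those of all 4 phosphatases selective for ERK (Dusp5, Dusp6, Dusp7 and Dusp9), of the nuclear phosphatase Dusp4 and of Dusp10, which acts on p38 and JNK. Dusp1, the most abundant of the 10 transcripts in control cells, fell.

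MAP kinases (ERK, p38 and JNK) are switched on by phosphorylation of a threonine and a tyrosine in their activation loop, and the phosphatases of this family remove both phosphates. Each has a catalytic domain and an amino-terminal kinase-binding domain that sets which MAP kinase it prefers. Several are immediate early or delayed early targets of the same kinases, so that growth factor signalling through ERK raises the transcripts of its own inhibitors. Dusp5 is nuclear and Dusp6, Dusp7 and Dusp9 are cytoplasmic, and these act mainly on ERK. Dusp1, Dusp2 and Dusp4 are nuclear and act on more than one class of MAP kinase, whereas Dusp8, Dusp10 and Dusp16 prefer p38 and JNK and are found in cytoplasm and nucleus. PDGF receptors are receptor tyrosine kinases that activate ERK, among other pathways.

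The series compared fibroblasts from hearts of C57BL/6 mice aged 1 to 2 weeks, grown with 15% serum and treated for 12 hours with saline (control, 3 libraries) or PDGF-DD (3 libraries), the processed homodimer of this growth factor that binds PDGF receptors. The dose is given as 20 µM, and its unit could not be checked. The growth protocol says that all cells came from mice with a global knockout of PDGF-D, whereas the genotype field reads control for the saline samples and PDGF-D -/- for the PDGF-DD samples. If the field is right, genotype and treatment cannot be told apart. Pdgfd itself had 118, 114 and 91 counts in control cells and 69, 72 and 82 counts after PDGF-DD, so reads were present in both groups and were fewer with PDGF-DD, with no overlap (log2 fold change -0.55, edgeR adjusted p = 0.00245). Counts over the whole gene do not show whether a deleted part was lost. Whether libraries of one group came from separate cultures or mice is not stated, and p-values here cover only their spread, which may be technical.

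Depth was even, at 21221114 to 21371829 counts per library. Control replicate 1 stood further from the other control libraries (5.11 and 5.71 as chi-square over its degrees of freedom) than those did from each other (2.48), and each comparison of the phosphatases was also made without it. All 8 fibroblast markers were detected, led by the collagen gene Col1a1, whose mean was 20773 ± 483 CPM (counts scaled to library size) in control cells and 17880 ± 525 CPM after PDGF-DD (SD, n = 3 each). The 8 fibroblast markers summed to 45830 to 47703 CPM in control and 40959 to 41605 CPM after PDGF-DD. Genes listed as markers of other cells were also detected, which alone does not show that those cells were present. Their summed levels were lower with PDGF-DD too: 161 to 173 CPM against 117 to 133 CPM for 8 cardiomyocyte markers. The 7 endothelial markers gave 219 to 235 against 204 to 210, and the 8 leukocyte markers 178 to 197 against 164 to 170. For 7 pericyte and smooth muscle markers the sums were 5275 to 5698 against 4208 to 4407. For 5 epicardial markers they were 49.1 to 52.9 against 44.0 to 47.6. None of these markers was at 0 in all libraries. Most of the pericyte and smooth muscle sum was Acta2, which went from a control mean of 5327 CPM to 4108 after PDGF-DD. Likewise Tnnt2 (mean 156 before, 115 after) made up most of the cardiomyocyte sum and Lyz2 (139, then 121) most of the leukocyte sum. The endothelial and epicardial sums were spread over more genes. A lower sum therefore does not mean that each marker in it was lower. In the tests, 6 of 8 tested fibroblast markers were lower and 1 higher, and the numbers lower were 3 of 6 cardiomyocyte, 1 of 7 endothelial, 1 of 7 leukocyte, 4 of 6 pericyte and smooth muscle (1 was higher) and 1 of 5 epicardial markers. The part of these cells in the changes of the phosphatases was not tested, and in RNA from bulk cultures fewer cells of a type and less RNA per cell cannot be told apart.

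The sequence upstream of the start site is shown for 4 of the genes, Dusp1, which fell, Dusp5 and Dusp6, which rose, and Dusp8, which did not pass. The choice was made because Dusp1, Dusp5 and Dusp8 hold matches to response elements, whereas Dusp6 holds none of those searched. Dusp1 and Dusp8 share a full element. The RefSeq promoter table (assembly GRCm38.p6, a later build than the mm9 named for the deposited data) held 8 of the 10 genes, all but Dusp4 and Dusp9. The 250 bases before the start are printed 5′ to 3′ on the strand of the gene, and capitals mark every motif found. These stretches are chr17:26508473-26508722, minus strand (Dusp1), chr7:142095285-142095534, minus strand (Dusp8), chr19:53528895-53529144, plus strand (Dusp5), and chr10:99262981-99263230, plus strand (Dusp6).
Dusp1: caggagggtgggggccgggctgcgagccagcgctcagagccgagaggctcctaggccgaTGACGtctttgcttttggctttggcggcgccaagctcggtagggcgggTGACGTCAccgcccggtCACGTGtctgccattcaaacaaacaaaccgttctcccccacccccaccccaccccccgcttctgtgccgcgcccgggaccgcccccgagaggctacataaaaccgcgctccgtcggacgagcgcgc
Dusp8: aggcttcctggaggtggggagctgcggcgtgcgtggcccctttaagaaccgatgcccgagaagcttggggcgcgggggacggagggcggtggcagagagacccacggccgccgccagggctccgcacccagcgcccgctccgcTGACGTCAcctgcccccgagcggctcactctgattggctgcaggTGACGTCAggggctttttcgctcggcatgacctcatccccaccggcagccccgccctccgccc
Dusp5: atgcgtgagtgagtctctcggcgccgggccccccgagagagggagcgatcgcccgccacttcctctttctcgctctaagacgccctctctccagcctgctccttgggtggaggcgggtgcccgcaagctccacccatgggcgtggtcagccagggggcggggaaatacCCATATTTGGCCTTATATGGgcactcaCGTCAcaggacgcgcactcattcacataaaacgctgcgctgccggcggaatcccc
Dusp6: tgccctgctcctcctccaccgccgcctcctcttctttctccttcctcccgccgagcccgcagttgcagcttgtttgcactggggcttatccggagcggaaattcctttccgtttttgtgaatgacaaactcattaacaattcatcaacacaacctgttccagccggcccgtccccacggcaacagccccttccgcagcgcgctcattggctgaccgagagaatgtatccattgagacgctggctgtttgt
Motifs were searched on both strands in the 300 bases from 250 before to 50 after the start. The cyclic AMP response element TGACGTCA, bound by the CREB and ATF families, occurred once in Dusp1, from base -143 to -136, and at 2 places in Dusp8, from -107 to -100 and from -63 to -56. It occurred in 1.79% of 32851 promoters in the table. Its half-site TGACG, which lies within every full element and was present in 20.8% of promoters, was also found in Dusp2, Dusp5 and Dusp16. The E-box CACGTG, in 7.15% of promoters, occurred in Dusp1 (from -126 to -121) and Dusp2 (from -109 to -104). The CArG box, the element bound by serum response factor, was searched after the sequences had been seen. Dusp5 held 2 of them side by side, from -82 to -73 and from -72 to -63, and none of the other 7 promoters held one, against 1.63% of all promoters. The AP-1 site TGANTCA (7.81% of promoters), the ETS site CCGGAAGT (3.89%) and the TATA box TATAAA (13.6%) were in none of the 8. Dusp6, Dusp7 and Dusp10 held no searched motif in this window. The promoters were rich in G and C, from 57.3% in Dusp6 to 78.7% in Dusp7, against a median of 52.7% over the table. A match is a description of letters, and factor binding was not measured.

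**Figure D1:**
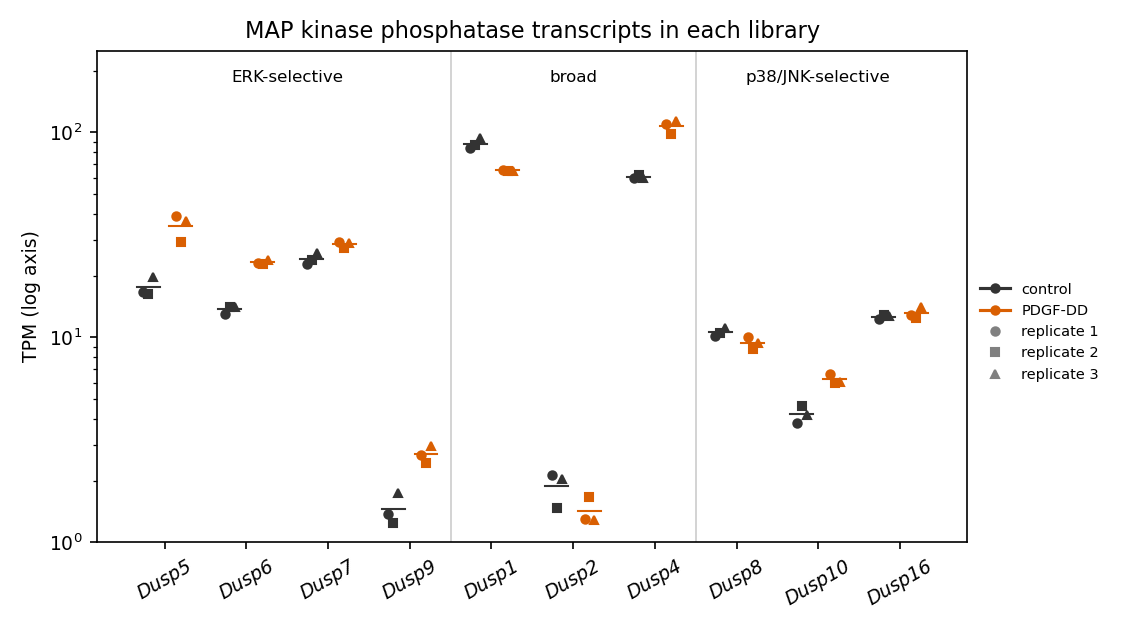
TPM (log axis) of each phosphatase transcript in the 3 control and 3 PDGF-DD libraries, with marker shapes for replicates and lines for group means. Dusp4 and Dusp1 lie above all other members, and the groups are apart for Dusp5, Dusp6, Dusp7, Dusp9, Dusp4 and Dusp10 (higher with PDGF-DD) and for Dusp1 and, narrowly, Dusp8 (lower).

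Among the ERK-selective members all 4 rose. Of all tested genes 36.5% were called in either direction, 19.1% as higher and 17.4% as lower (adjusted p below 0.05 over all genes, from the quasi-likelihood test of edgeR), and this is the background for each count given here. The median log2 fold change of the 4 was 0.84 and that of all 10 members 0.41, against -0.01 over all tested genes. Levels per library are given in TPM, the deposited transcript measure that allows for gene length and library size, and changes are log2 fold changes from the counts.

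Dusp5 (gene ID 240672) encodes the nuclear phosphatase that dephosphorylates ERK and holds it in the nucleus. It stood at 16.6, 16.3 and 19.6 TPM in the control libraries and 39.2, 29.1 and 37.1 TPM with PDGF-DD. Every PDGF-DD library lay above every control library, and PDGF-DD replicate 2 was the lowest of its group. The log2 fold change was 1.01 (SE 0.10, 95% interval 0.79 to 1.23, edgeR adjusted p = 2.67e-06), a 2.01-fold rise and the largest among the 10 members. It ranked 58th in log2 fold change among the 13270 tested genes. Its scatter within the PDGF-DD group, a coefficient of variation of 14.1% in CPM, was above that of Dusp4 (6.37%) and Dusp6 (1.86%). Without PDGF-DD replicate 2 the log2 fold change of Dusp5 was 1.13.

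Dusp6 (gene ID 67603) encodes the cytoplasmic phosphatase best known as a feedback inhibitor of ERK downstream of growth factor receptors. Its levels were 13.0, 14.0 and 14.1 TPM in control and 23.0, 22.9 and 23.8 TPM with PDGF-DD. The libraries of each group lay close together, and the groups were far apart. The rise was 1.71-fold (log2 fold change 0.77, SE 0.06, edgeR adjusted p = 5.59e-10). Dusp7 (gene ID 235584), a close relative of Dusp6, rose less. It was at 22.7, 23.9 and 25.7 TPM in control and 29.2, 27.4 and 28.9 TPM with PDGF-DD. The groups did not overlap but lay within a few TPM of each other, and the log2 fold change was 0.25 with an SE of 0.05 (edgeR adjusted p = 0.000646). The intervals of these relatives did not meet: 0.64 to 0.91 for Dusp6 and 0.14 to 0.36 for Dusp7.

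Dusp9 (gene ID 75590), known from placenta and embryo, was among the 2 rarest of the 10 transcripts in control cells, with Dusp2. Its 35, 30 and 42 counts in control and 66, 62 and 74 counts with PDGF-DD gave 1.37, 1.24 and 1.74 TPM against 2.67, 2.44 and 2.96 TPM. No library of one group reached the other group. The log2 fold change was 0.90, with the wide interval of 0.53 to 1.27 that such counts allow (edgeR adjusted p = 0.000246). On the scale of log2(FPKM + 1) its change was 0.42, since the added 1 is about as large as the value itself.

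Among the members that act on several MAP kinases, 1 rose, 1 fell and 1 did not pass. Dusp4 (gene ID 319520), which removes phosphates from ERK, JNK and p38 in the nucleus, stood at 60.0, 62.2 and 59.6 TPM in control and 109, 97.9 and 113 TPM with PDGF-DD. The groups were separated by more than the whole range of either. Its log2 fold change was 0.83 (SE 0.05, 95% interval 0.73 to 0.93, edgeR adjusted p = 8.71e-13), the smallest p of the family. PDGF-DD replicate 2 was the lowest of its group, as for Dusp5.

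Dusp1 (gene ID 19252) is the classical immediate early phosphatase of the family and acts mainly on p38 and JNK in many cells. It was the highest of the 10 in every control library, with 83.5, 86.6 and 93.5 TPM, and stood at 65.8, 65.1 and 64.5 TPM with PDGF-DD. All 3 PDGF-DD libraries were close to each other and below the lowest control library. It was 1.34-fold lower (log2 fold change -0.42, SE 0.05, 95% interval -0.52 to -0.32, edgeR adjusted p = 8.42e-08). Dusp2 (gene ID 13537), best known from activated leukocytes, was near the lower end of detection, with 32, 21 and 29 counts in control and 19, 25 and 19 with PDGF-DD. These correspond to 2.12, 1.47 and 2.03 TPM and 1.3, 1.67 and 1.29 TPM. The groups overlapped, and the log2 fold change of -0.39 had an interval from -0.92 to 0.13 (edgeR adjusted p = 0.244), which holds both 0 and the value of Dusp1 at this depth.

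Of the members selective for p38 and JNK, 1 of 3 rose. Dusp10 (gene ID 63953) stood at 3.83, 4.63 and 4.17 TPM in control and 6.65, 5.99 and 6.09 TPM with PDGF-DD. The groups did not overlap, and the log2 fold change was 0.57 (SE 0.11, edgeR adjusted p = 0.000168). Dusp16 (gene ID 70686), a phosphatase that prefers JNK, was at 12.2, 12.8 and 12.7 TPM in control and 12.8, 12.5 and 14.0 TPM with PDGF-DD. Its groups overlapped in TPM, and the interval of the log2 fold change, -0.06 to 0.19, does not reach the value of Dusp10 (edgeR adjusted p = 0.435).

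Dusp8 (gene ID 18218), which inactivates p38 and JNK, was at 10.1, 10.6 and 11.1 TPM in control and 10.0, 8.74 and 9.39 TPM with PDGF-DD. Each PDGF-DD library was below each control library, though by little in replicate 1. The log2 fold change was -0.16 (interval -0.30 to -0.03), and the adjusted p was 0.0574 in edgeR and 0.0329 under upper-quartile scaling, where it passed as lower. Some counts of Dusp8 and Dusp10 were not whole numbers, as happens where an estimate divides reads between features. In CPM, 9 of the 10 members had groups that did not overlap (7 higher, Dusp16 among them, and 2 lower), against 47.1% of all tested genes (23.6% higher and 23.5% lower). The exact two-sided permutation test gives p = 0.1 for such a gene, the smallest value that 3 against 3 libraries allow, and so cannot pass a threshold of 0.05.

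**Figure D2:**
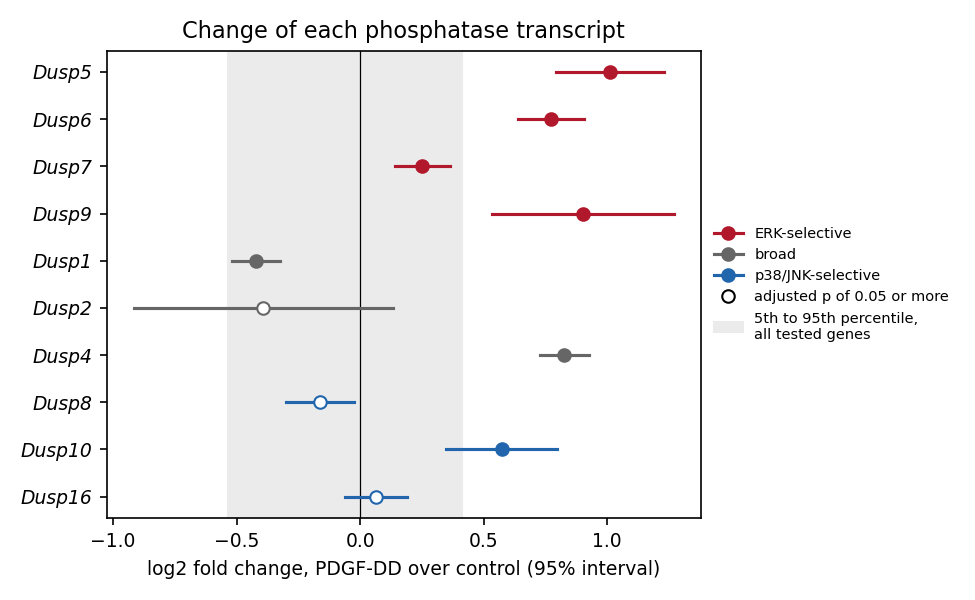
Log2 fold change of each phosphatase transcript (PDGF-DD over control, 3 libraries each) with its 95% interval, coloured by substrate preference, with the range from the 5th to the 95th percentile of all tested genes in grey. Dusp5, Dusp6, Dusp9, Dusp4 and Dusp10 lie to the right of the grey range, and the open points (Dusp2, Dusp8, Dusp16) did not pass the test.

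In control the order from high to low TPM was Dusp1, Dusp4, Dusp7, Dusp5, Dusp6, Dusp16, Dusp8, Dusp10, Dusp2 and Dusp9, and each gene's range was clear of the next except for Dusp2 and Dusp9. With PDGF-DD it was Dusp4, Dusp1, Dusp5, Dusp7, Dusp6, Dusp16, Dusp8, Dusp10, Dusp9 and Dusp2. Here the ranges of Dusp5 and Dusp7 overlapped and those of the other neighbours did not. Between the groups Dusp1 and Dusp4, Dusp5 and Dusp7, and Dusp2 and Dusp9 exchanged places. The ratio of Dusp4 to Dusp1, chosen after the values had been seen, was 0.718, 0.718 and 0.637 in control and 1.66, 1.5 and 1.75 with PDGF-DD. Dusp1 therefore exceeded Dusp4 in every control library and Dusp4 exceeded Dusp1 in every PDGF-DD library (exact two-sided permutation p = 0.1, the smallest possible).

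The summed level of the 10 transcripts was 226, 234 and 244 TPM in the control libraries and 300.0, 274 and 301 TPM with PDGF-DD. Dusp1 made up 37.5 ± 0.72% of this pool in control and 22.4 ± 1.25% with PDGF-DD, and Dusp4 made up 25.9 ± 1.28% and 36.6 ± 0.90% (SD, n = 3 each). The summed ERK-selective members went from 56.8 ± 3.86 to 89.5 ± 6.77 TPM, from 24.2 ± 0.71% to 30.7 ± 0.74% of the pool. Members selective for p38 and JNK stood at 27.4 ± 1.07 and 28.7 ± 1.33 TPM, so that their level overlapped between the groups, and their share was 11.7 ± 0.26% in control and 9.85 ± 0.08% with PDGF-DD. The summed members of broad preference went from 150 ± 4.74 to 173 ± 7.67 TPM, while their share went from 64.1 ± 0.55% to 59.5 ± 0.68%. Dusp1 and Dusp4 moved in opposite directions within them. These sums describe transcripts, and no test was made on them because the genes were chosen as a family.

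The nuclear members Dusp1, Dusp2, Dusp4 and Dusp5 went from 168 ± 6.34 to 209 ± 12.8 TPM and held 71.6 ± 0.35% of the pool in control and 71.5 ± 0.59% with PDGF-DD. Of these 2 rose (Dusp4 and Dusp5), 1 fell (Dusp1) and 1 did not pass. The cytoplasmic members Dusp6, Dusp7 and Dusp9 all rose, their sum going from 39.2 ± 2.2 to 54.4 ± 1.56 TPM, and their share went from 16.7 ± 0.27% to 18.7 ± 0.51%. Median log2 fold changes were 0.22 for the nuclear, 0.77 for the cytoplasmic and 0.07 for the members found in both places, the last being the same genes as the group selective for p38 and JNK. The substrate classes had medians of 0.84 (ERK-selective), -0.39 (broad) and 0.07 (p38 and JNK), with ranges of 0.25 to 1.01, -0.42 to 0.83 and -0.16 to 0.57. The broad median is the value of Dusp2 and the p38 and JNK median that of Dusp16, and neither gene passed the test. With 3 or 4 genes in a class and overlapping ranges, the medians are descriptions of the named genes.

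**Figure D3:**
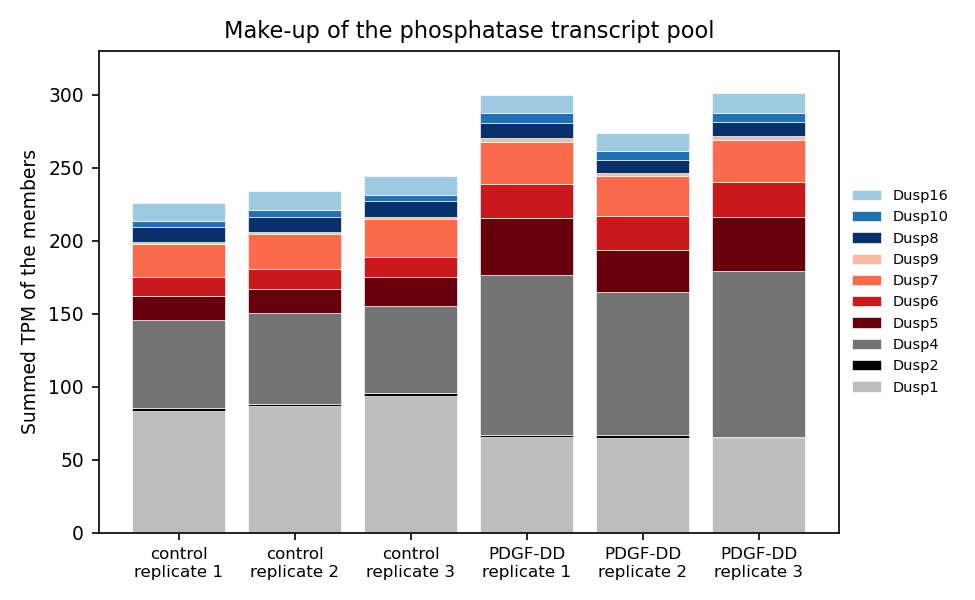
Summed TPM of the 10 phosphatase transcripts in each library, stacked by gene, with broad members in greys and black, ERK-selective members in reds and members selective for p38 and JNK in blues. The pool is 226 to 244 TPM in control and 274 to 301 TPM with PDGF-DD, and the Dusp4 segment grows while the Dusp1 segment shrinks.

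PDGF-DD replicate 2 gave the lowest CPM of its group in 4 of the 6 members that rose, namely Dusp4, Dusp5, Dusp7 and Dusp9. Over all 2535 genes called as higher it was the lowest in 42.2%. The genes whose log2 CPM followed Dusp4 most closely over the 6 libraries, among 10458 genes with mean CPM of 5 or more, included Hnrnpf, an RNA-binding splicing regulator (Pearson r = 1.00 after rounding, log2 fold change 0.26), and Sgk1, a serum-induced kinase (r = 0.999, log2 fold change 0.90). Dusp6 was followed by Pgs1, an enzyme of cardiolipin synthesis, Nup85, a nuclear pore protein, and Sdc1, the proteoglycan syndecan 1, with log2 fold changes of 0.35, 0.46 and 0.67 and r of at least 0.999. These correlations rest on 6 points in 2 groups that share libraries and depth, so that the difference between the groups alone gives a high r.

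Of 9 tested MAP kinases, the family that holds the substrates of these phosphatases, 3 rose and 2 fell, with a median log2 fold change of 0.12. Mapk3, which encodes ERK1, fell by 0.16 on the log2 scale (edgeR adjusted p = 0.00189) and Mapk7, which encodes ERK5, by 0.23. Mapk11 and Mapk14, the genes of p38β and p38α, rose by 0.28 and 0.13. Of 29 upstream kinases and GTPases 8 rose and 5 fell, with a median of 0.04. Map2k3, a kinase that activates p38, rose from 86.1 ± 2.18 to 122 ± 1.96 CPM and Map4k4, a kinase upstream of JNK, from 363 ± 9.80 to 442 ± 6.21 CPM. Another p38-activating kinase gene, Map2k6, named after its value was seen, rose by a log2 fold change of 0.93. The Raf kinase gene Braf and the GTPase gene Rras fell by 0.37 and 0.39 on the log2 scale. Other genes, also named after their values were seen, went against a split by pathway. The Ras gene Nras and the kinase gene Map2k1 rose by 0.11 and 0.15. The kinase genes Map3k8 and Map3k2 fell by 0.60 and 0.24. Leaving out control replicate 2 or PDGF-DD replicate 2 left 3 of the 29 that fell, as did limma. The number that rose was 5 without PDGF-DD replicate 3 and 4 in limma on TPM.

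Of 16 kinases and scaffolds that work around the MAP kinases 2 rose and 4 fell, with a median of -0.04. Rps6ka4, a nuclear kinase downstream of ERK and p38, rose by a log2 fold change of 0.19. Mknk2, which phosphorylates the cap-binding factor eIF4E, fell by 0.24 and the JNK scaffold gene Spag9 by 0.17. The number that rose was 1 without control replicate 2 or in DESeq2, and the number that fell was 2 without PDGF-DD replicate 3, in DESeq2 or in limma on FPKM.

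Among 14 tested atypical dual-specificity phosphatases and slingshot phosphatases, which lack the kinase-binding domain of the family, 6 fell and 1 rose, with a median log2 fold change of -0.10. Ssh3 and Ssh1, which activate the actin-severing protein cofilin, fell by 0.45 and 0.23 on the log2 scale and Dusp18 by 0.33. Dusp3, the most abundant atypical member, fell by 0.15 (edgeR adjusted p = 0.00524, and 0.0603 without PDGF-DD replicate 3). The member that rose was Dusp12, outside the rule for named genes, with a log2 fold change of 0.29, and it did not pass without control replicate 2 (edgeR adjusted p = 0.0849) or PDGF-DD replicate 3 (0.091) or in DESeq2 (0.0541). Without PDGF-DD replicate 1, or in limma on TPM, the number of atypical members that rose was 2. The number of them that fell was 4 without control replicate 2 and in DESeq2. It was 5 without any one of the other libraries, under total count scaling and in limma on FPKM. Among 10 other phosphatases that act on MAP kinases, 1 rose (2 without PDGF-DD replicate 3) and 0 fell in edgeR, with 0 lower at an unadjusted p under 0.05 and 0 lower in DESeq2 and limma. The one that rose was Ppp2r2a, a regulatory subunit of protein phosphatase 2A (log2 fold change 0.14, not passed in limma on TPM). The difference between these lists and the 10 members was not tested.

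Of 21 transcripts known to be raised by ERK, 16 rose and 0 fell in edgeR, with a median log2 fold change of 0.55. At an unadjusted p under 0.05 1 was lower, DESeq2 and limma called 0 as lower, and under upper-quartile scaling 1 fell. Cyclin D1 (Ccnd1), Phlda1 and Plaur, the receptor for uPA, rose by 1.13, 0.97 and 0.63, and the immediate early factor Egr2 rose from 3.84 ± 0.72 to 11.5 ± 0.95 CPM. Of 14 other feedback inhibitors of the ERK pathway 9 rose and 2 fell, with a median of 0.32. Errfi1 and Lrig1, inhibitors of the EGF receptor, rose by 1.39 and 0.75, and Rasa1, a GTPase-activating protein for Ras, by 0.63. Spry1 fell by 0.43 on the log2 scale and Il17rd, named after its value was seen, by 0.58. The related genes Spry2, Spry4, Spred1, Spred2 and Spred3, also named after their values were seen, rose by log2 fold changes of 0.20 to 0.41. Spry3 did not pass.

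Of 18 transcripts responsive to stress kinases 3 rose and 6 fell, with a median of -0.11, and without control replicate 1 the number that rose was 5. Gadd45b and Gadd45g, which regulate the p38 and JNK pathways, fell by 0.59 and 0.48 on the log2 scale and Atf2, a transcription factor phosphorylated by both kinases, by 0.23, while Ptgs2 (cyclooxygenase 2) rose by a log2 fold change of 1.49. Of 13 transcription factors of the SRF, ETS and CREB families 2 rose and 2 fell, with a median of 0.02. The ETS factor genes Elk3 and Elk1 moved in opposite directions, by log2 fold changes of 0.23 and -0.31. Leaving out any one of control replicate 2, control replicate 3, PDGF-DD replicate 1 and PDGF-DD replicate 3 brought the rises to 1, as did DESeq2, upper-quartile scaling and limma on TPM. The falls were 1 without control replicate 2 or control replicate 3 and in limma on TPM.

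**Figure D4:**
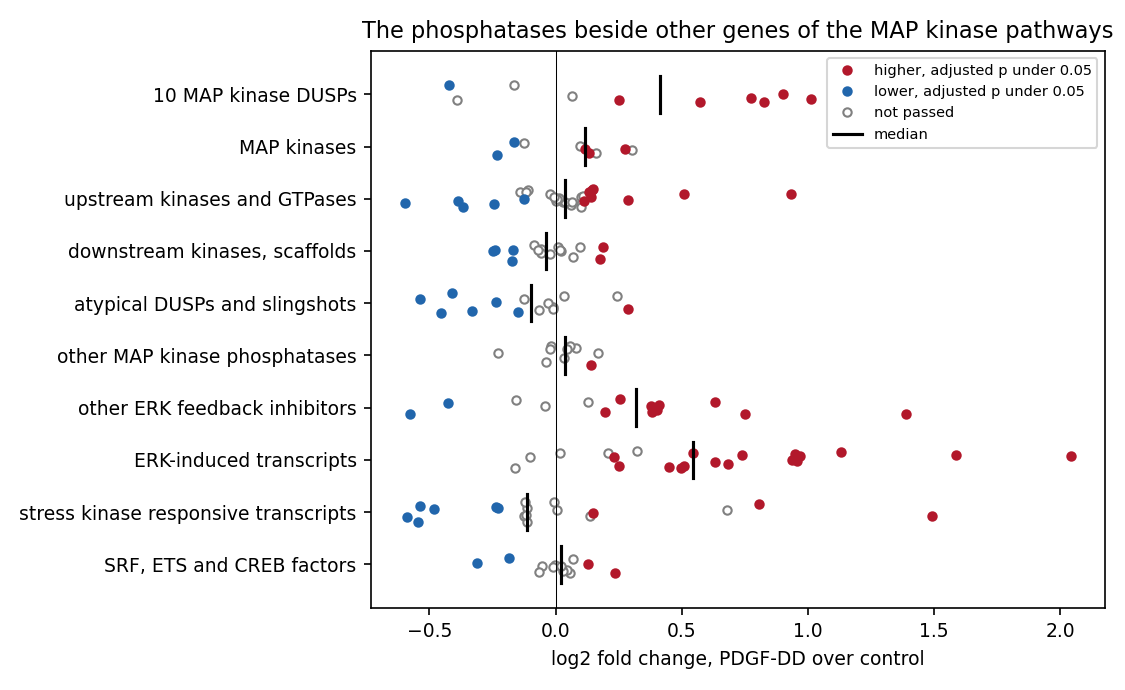
Log2 fold change (PDGF-DD over control) of every tested gene in the phosphatase family and in 9 lists of MAP kinase pathway genes, with red for higher, blue for lower, open points for genes that did not pass and black lines for medians. Most points of the kinase lists lie near 0, whereas ERK-induced transcripts have a median of 0.55 and the 10 phosphatases one of 0.41.

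**Figure D5:**
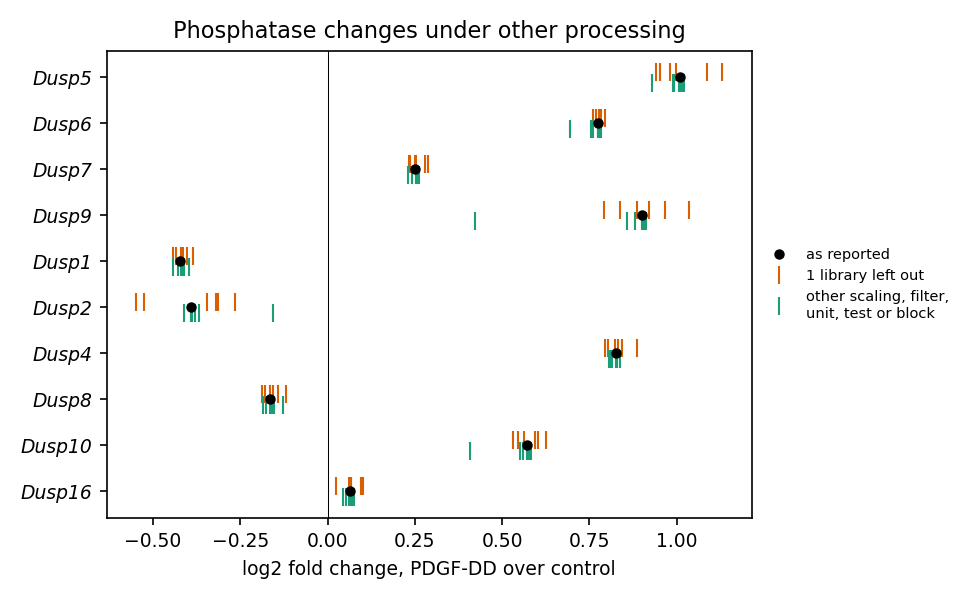
Log2 fold change of each phosphatase as reported (black), with 1 library left out (orange) and under other scaling, filter, unit, test or block (green). No member changes sign, and Dusp9, Dusp2 and Dusp10 show the widest ranges (0.42 to 1.04, -0.55 to -0.16 and 0.41 to 0.62).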

How the data were processed

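RNA from the cells was captured on oligo(dT) beads, fragmented, primed with random hexamers and read from DNA nanoballs, per the labels' protocols. The submitters' processing notes name HISAT2 2.0.4, Bowtie2 2.2.5, RSEM 1.2.12, DESeq2 1.4.5 and build mm9, without roles. The annotation and any use of strand were not given in the sources used here. Overlapping or antisense genes could therefore share reads. The deposited tables hold estimated counts per gene, FPKM and TPM, made by the authors, per the file headers.

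Counts were rounded to whole numbers, filtered with filterByExpr (minimum count 10), scaled by TMM and tested with edgeR 4.0.16 (quasi-likelihood, robust, two-sided) in R 4.3.3, with Benjamini-Hochberg adjustment over 13270 genes. CPM uses TMM-scaled libraries, except that summed marker levels use the plain total. SE is the log2 fold change over the square root of F. Alternatives used DESeq2 1.42.0 and limma 3.58.1. The method was tested on simulated data.

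The members and lists were chosen with earlier results of these data known. Named genes are the 10 members, Pdgfd, from each list those called among its 4 genes of lowest p and its 2 most abundant genes, and the 3 genes closest in pattern to the 2 members of lowest p. Not all are named. Exceptions are stated.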

Additional observations from a re-analysis of the deposited data

How the results depend on the processing

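Over 14 alternatives, which changed the scaling, the low-count filter, the unit, the test or the replicate block or left out 1 library, the same 6 members were called as higher and Dusp1 as lower each time. The number of members called as lower was 2 under upper-quartile scaling, where Dusp8 was added, and 1 in all others. Of 140 values of the members 139 kept their direction and their side of the threshold. For 43 other genes, 597 of 602 did so, 5 no longer passed and 0 reversed. The lost calls were 3 of Dusp12 and 1 each of Dusp3 and Ppp2r2a. The genes called over the whole table ranged from 1995 to 2709 higher and from 1611 to 2636 lower, against 2535 and 2310. With the replicate block, where the libraries share only a number, 2269 were higher and 2076 lower, and 6 members were higher and 1 lower. The block brought the rises among the SRF, ETS and CREB factors from 2 to 1 and among MAP kinases from 3 to 2. Among upstream kinases and GTPases it brought the rises from 8 to 6 and the falls from 5 to 4. The falls among kinases and scaffolds around the MAP kinases went from 4 to 3. Libraries of the same number did not deviate together (correlations of -0.07, -0.09 and -0.03), and none correlated best with its own number. The shares of the pool depend on how the broad members are assigned. With Dusp2 and Dusp4 counted as ERK-selective and Dusp1 as selective for p38 and JNK, the ERK-selective share was 50.9% in control and 67.8% with PDGF-DD and the other share 49.1% and 32.2%. With Dusp8, Dusp10 and Dusp16 counted as cytoplasmic, that share was 28.4% and 28.5%. Shares from FPKM and with a library left out moved by less than the SD, but neither could do otherwise, so neither is a check. Within a library FPKM and TPM differ only by a common factor. Dropping 1 library of a group cannot move its mean share by the SD. Depth limits Dusp2 (19 to 32 counts per library) and Dusp9 (30 to 74).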
